A study of Homo sapiens with 8 samples.

Results

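The guanylate-binding proteins GBP1 to GBP5 were followed as 5 genes of the GBP family in A549 cells given interferon-γ (IFN-γ), the kinase inhibitor AX-0085, both or neither. The members were chosen by gene symbol, and all 5 were found among the 60664 genes of the count table, had counts, and were among the 15066 genes that passed the filter on low counts. A549 is a lung adenocarcinoma cell line described by its labels as alveolar basal epithelial. The 8 mRNA libraries formed 4 groups of 2: untreated cells, AX-0085 alone, IFN-γ alone, and IFN-γ with AX-0085. IFN-γ was given at 20 ng, for which the labels state no volume, AX-0085 was added to 0.5 uM after 24 h, and cells were harvested after a further 24 h. No engineered allele was named for any group. The labels number 2 samples in each group without saying that they came from separate cultures, so the p-values measure the spread between these samples, which may be technical.

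GBPs are large GTPases of the dynamin superfamily whose genes are among those most readily induced by interferons. IFN-γ acts through its receptor, the kinases JAK1 and JAK2 and the transcription factors they activate, with IRF1 as a further factor at many GBP promoters. The proteins assemble on the membranes of intracellular bacteria and parasites and take part in inflammasome activation. GBP1, GBP2 and GBP5 end in a motif that is prenylated, which helps them to bind membranes.

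All 5 genes lie on the minus strand of chromosome 1 (GRCh38), within 266.2 kb. GBP3 (ENSG00000117226) spans chr1:89006679-89022894, GBP1 (ENSG00000117228) spans chr1:89051882-89065360 and GBP2 (ENSG00000162645) spans chr1:89106132-89150456. GBP4 (ENSG00000162654) spans chr1:89181144-89198942 and GBP5 (ENSG00000154451) spans chr1:89256189-89272860. The canonical transcripts have 11 exons in GBP1, GBP2, GBP3 and GBP4 and 12 exons in GBP5.

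The promoters of 3 of the 5 members, GBP1, GBP3 and GBP4, were in the RefSeq promoter table (GRCh38.p14, 300 bases a gene), and each held the core of an interferon-stimulated response element (ISRE), an element bound by factors of the IRF family. The letters searched were TTTCNNTTTC for the ISRE core and TTCNNNGAA for the gamma-activated site (GAS), another element of IFN-γ-responsive promoters, on both strands. The ISRE core was found in 3.57% and the GAS in 7.66% of the 35116 promoters of the same length, and 0.439% held both. The following stretches are shown because they carry these matches in genes that responded together, 5′ to 3′ on the minus strand, with the matched letters in capitals.
GBP1 ISRE core, chr1:89065316-89065345: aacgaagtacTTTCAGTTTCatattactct
GBP3 ISRE core, chr1:89022845-89022874: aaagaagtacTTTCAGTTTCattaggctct
GBP3 GAS, chr1:89022863-89022891: actgagtcacTTCCTTGAAagaagtactt
GBP4 ISRE core, chr1:89198927-89198956: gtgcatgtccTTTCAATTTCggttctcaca
Counted from the RefSeq start, the ISRE core lay at -127 to -118 in GBP1, at 3 to 12 in GBP3 and at -4 to 6 in GBP4, and the GAS of GBP3 lay at -15 to -7. The GBP1 and GBP3 stretches lie inside the annotated spans of their genes, which begin upstream of the RefSeq start, while that of GBP4 crosses the start of its gene. GBP1 and GBP3 held the same 10 letters in the ISRE core, and their windows shared a run of 19 bases around it. A match describes letters only, and binding was not measured.

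Library totals ranged from 20672828 to 29978251 counts. A count of 3, taken as the floor in each library, corresponded to 0.0959 to 0.158 CPM (counts scaled to library size and TMM factor), so the levels of GBP1, GBP4 and GBP5 without IFN-γ lay near or under what this depth can show. Of 6 epithelial markers, 5 had at least 10 counts in all 8 libraries (summed level 5759 to 9550 CPM), whereas of the 6 alveolar type 2 markers this held for ABCA3 alone, and SFTPA1 and NAPSA had no count. Of 8 leukocyte and macrophage markers none had 10 counts in all libraries, 5 of them, CD3E, MS4A1, CD68, AIF1 and CD163, were at 0 throughout, and their summed level was 0.163 to 0.232 CPM in untreated libraries, 0.113 to 0.358 with AX-0085, 0.0402 to 0.0528 with IFN-γ and 0.0450 to 0.192 with both. Of the 4 endothelial markers none, and of the 5 fibroblast markers only COL1A1, had at least 10 counts in all libraries. Whether the counting set the zeros of markers at 0 throughout was not tested, so no level is read from those zeros. The summed level of the fibroblast list was 9.60 to 11.1 CPM in untreated libraries and 3.06 to 4.70 with IFN-γ, and its part in the results was not tested.

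IFN-γ raised all 5 members from low levels. GBP1, the most abundant member after IFN-γ, had 4 and 2 counts in the untreated libraries and 6377 and 8034 under IFN-γ. GBP2, a prenylated member, had 9 and 9 counts without treatment and 1008 and 1146 under IFN-γ. GBP3 had 25 and 24 counts before and 729 and 1003 after. GBP3 was therefore the member with the most counts in untreated cells.

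GBP4 had 0 and 1 counts in the untreated libraries and 559 and 780 under IFN-γ. GBP5, which is known as a promoter of NLRP3 inflammasome assembly, had 0 and 1 counts without treatment and 176 and 274 under IFN-γ. In normalized levels, IFN-γ-treated cells held 329.9 ± 9.79 CPM of GBP1 (mean ± SD, n = 2), 49.7 ± 5.07 of GBP2, 39.4 ± 1.29 of GBP3, 30.4 ± 1.30 of GBP4 and 10.2 ± 1.22 of GBP5. Both untreated libraries were far below both IFN-γ libraries for every member. The share of all genes whose groups did not overlap is not given here, so this describes the members only. In bulk RNA, a higher level per cell and more cells that express a gene cannot be told apart.

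**Figure D1:**
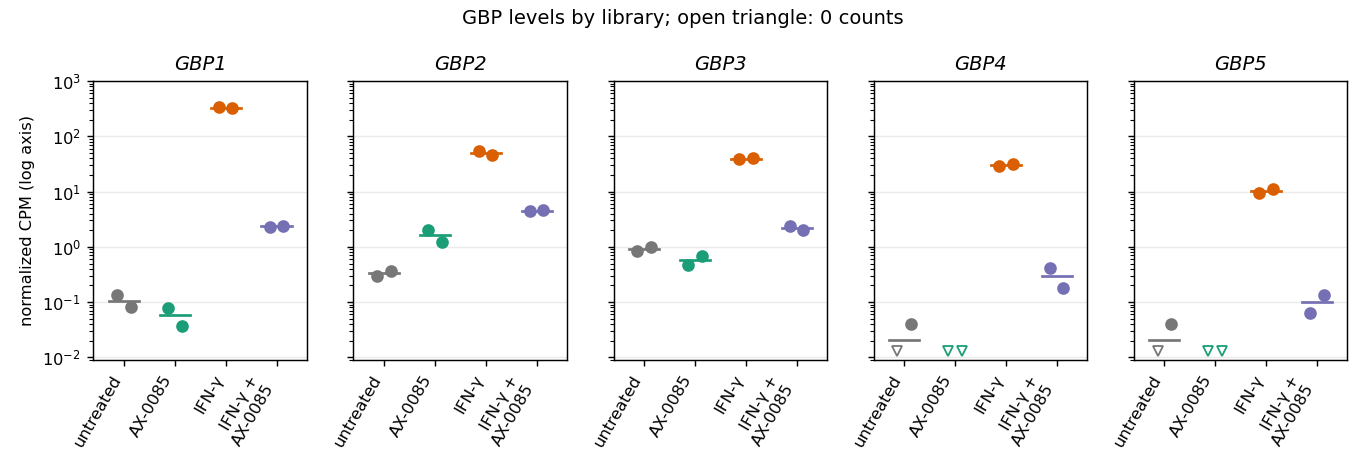
Normalized CPM of GBP1 to GBP5 in each of the 8 libraries on a log axis, with the mean of each group as a line and a library with 0 counts as an open triangle at the foot of the panel. In every panel both IFN-γ libraries stand above all others, from 9.30 CPM for GBP5 to 336.8 CPM for GBP1.

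The 5 members differed in how far they rose. A gene was called where the Benjamini-Hochberg-adjusted p of edgeR's quasi-likelihood test over all 15066 genes was under 0.05 and the fold change over 2. By these criteria all 5 members were called higher with IFN-γ, against 10.3% of all genes tested. GBP3 rose 43.8-fold (log2 5.45, SE 0.14, adjusted p = 4.399e-12) and GBP2 rose 149-fold (log2 7.22, SE 0.20, adjusted p = 5.847e-12). GBP1 rose by 11.49 on the log2 scale, and its 95% interval of 11.21 to 11.78 lay above those of GBP2 (6.79 to 7.64) and GBP3 (5.14 to 5.77).

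GBP4 and GBP5 were called as well (adjusted p = 4.982e-11 and 1.929e-09), but with a single count in the untreated group their folds are known only loosely. The ratio of depth-scaled counts was 1674 for GBP4, with a 95% counting interval of 299.96 to 66174, and 563 for GBP5, with an interval of 100.5 to 22272. These intervals cover counting error only. The median log2 change of the members was 8.78 in the fit, beside -0.06 over all genes tested. GBP4 and GBP5 passed the filter through the IFN-γ libraries, where they are high, so this count and median describe the members and support nothing further.

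**Figure D2:**
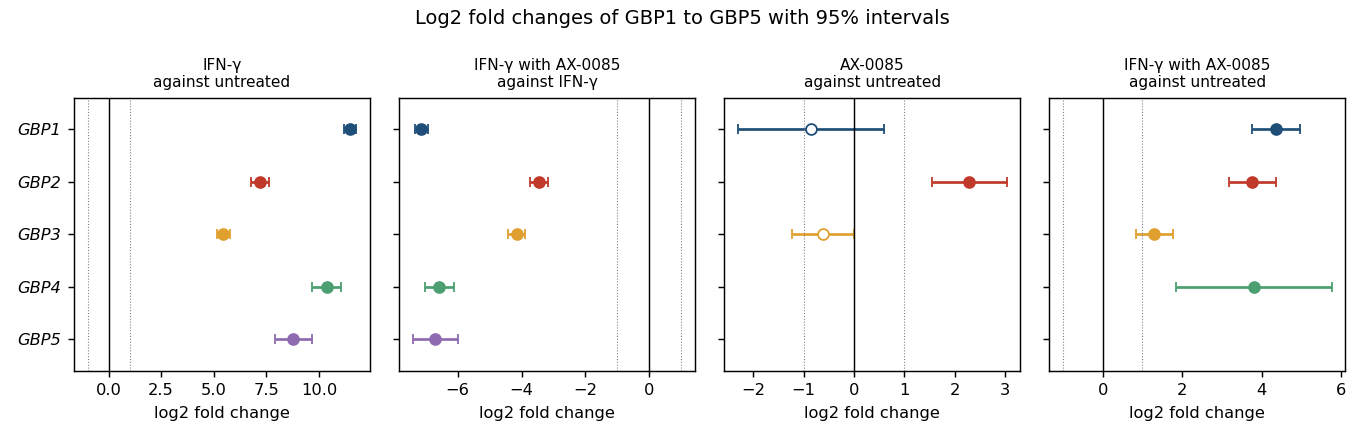
Fitted log2 fold changes of GBP1 to GBP5 with 95% intervals in 4 comparisons, 1 panel each, with filled points for called genes, open points for the others, dotted lines at a 2-fold change and no point where both groups lay at or under 3 counts in each library. With IFN-γ the points run from 5.45 for GBP3 to 11.49 for GBP1, and the points of GBP4 and GBP5 against untreated cells rest on a single untreated count. Those of GBP1 against untreated cells rest on 6 untreated counts, and its counting interval is wider than the fitted one shown.

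Per length, GBP1 made up most of the GBP transcripts of IFN-γ-treated cells. Levels of different genes were compared as CPM per kb of merged exons. In untreated cells GBP3 was highest, at 0.193 and 0.228 CPM per kb, followed by GBP2 at 0.0412 and 0.0507 and GBP1 at 0.0217 and 0.0133. GBP4 and GBP5 were at 0 in one untreated library each and could not be ordered. Their single counts, and the 6 counts of GBP1, leave the lower end of this order uncertain.

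With IFN-γ the order became GBP1 (54.1 ± 1.60 CPM per kb, SD, n = 2), GBP3 (9.20 ± 0.300), GBP2 (6.87 ± 0.702), GBP4 (4.96 ± 0.211) and GBP5 (0.927 ± 0.111), and no neighbours in it overlapped. GBP2 and GBP3 changed places when the length of the longest transcript was used, at 12.1 and 10.7 CPM per kb. GBP1 took 71.5% and 70.7% of the summed level of the 5 members with IFN-γ, against 8.47% and 4.41% in untreated cells. GBP3 took 75.4% of the sum in each untreated library and 11.6% and 12.6% under IFN-γ. The sum itself was 0.256 and 0.303 CPM per kb in untreated cells and 77.2 and 74.8 under IFN-γ.

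**Figure D3:**
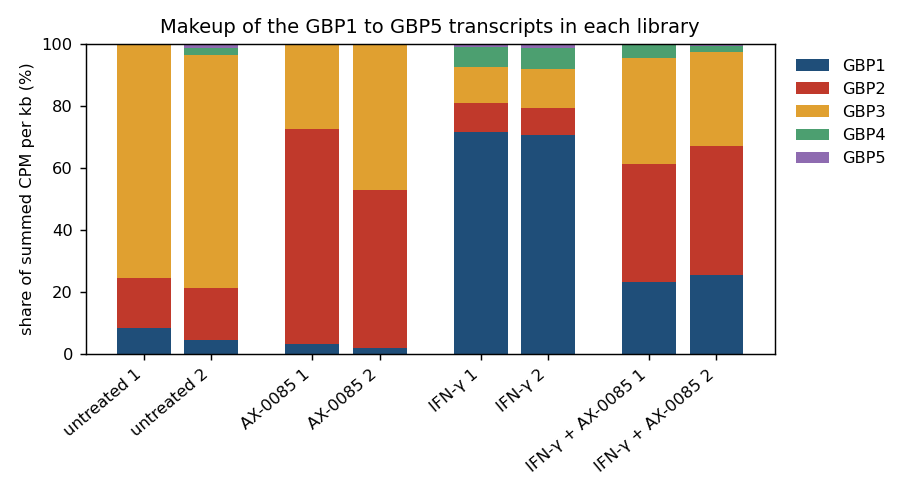
Share of each member in the summed CPM per kb of GBP1 to GBP5, stacked to 100% for each of the 8 libraries. GBP3 fills 75.4% of both untreated bars, GBP2 51.1% and 69.3% of the AX-0085 bars, and GBP1 70.7% and 71.5% of the IFN-γ bars.

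When AX-0085 was added on top of IFN-γ, all 5 members fell, against 8.28% of all genes called lower in this comparison. GBP1 went to 73 and 53 counts, and GBP2 to 140 and 102. GBP3 went to 75 and 44, GBP4 to 13 and 4, and GBP5 to 2 and 3. Every library with both agents was below every library with IFN-γ alone for each member. This too is given without the share of all genes whose groups did not overlap. Adjusted p-values were 2.377e-14 for GBP1, 1.399e-10 for GBP2, 1.845e-11 for GBP3, 1.204e-10 for GBP4 and 3.622e-09 for GBP5 (edgeR quasi-likelihood test).

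The members fell by unequal amounts. GBP2 fell by 3.45 on the log2 scale (SE 0.13), the smallest fall of the 5, and GBP3 fell by 4.15 (SE 0.13). The log2 changes of GBP4 (-6.57, 95% interval -7.03 to -6.10) and GBP5 (-6.70, interval -7.40 to -5.99) were larger in size than those of GBP2 and GBP3, whose intervals were -3.73 to -3.17 and -4.42 to -3.88. The intervals of GBP4, GBP5 and GBP1 (-7.32 to -6.93) overlapped. With both agents GBP4 had 17 counts and GBP5 had 5, and counting error alone gave wider intervals for them. As ratios to IFN-γ alone, these 95% counting intervals were 0.00604 to 0.0167 for GBP4 and 0.00294 to 0.0214 for GBP5. Both lay below the counting intervals of GBP2 (0.0802 to 0.105) and GBP3 (0.0463 to 0.0678). The median log2 change of the members was -6.57, beside 0.03 over all genes. GBP4 and GBP5 passed the filter through the IFN-γ libraries in this comparison too, so the count of 5 and the median are descriptions only.

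On the linear scale, what was left was largest for GBP2. Its level with both agents was 9.13 ± 0.155% of its mean level with IFN-γ (SD of the 2 libraries with both agents), and that of GBP3 was 5.55 ± 0.754%. GBP1 kept 0.715 ± 0.0104%, GBP4 0.978 ± 0.548% and GBP5 0.979 ± 0.494%. When the level in the matching group without IFN-γ was subtracted on both sides, 5.87% of the IFN-γ change was left for GBP2, 4.18% for GBP3, 0.697% for GBP1, 0.979% for GBP4 and 0.981% for GBP5. The values of GBP4 and GBP5 ranged from 0.589% to 1.36% and from 0.630% to 1.33% when one or the other library with both agents was left out. As a share of the log2 change GBP2 had the least left, at 20.4%, followed by GBP3 at 35.3% and GBP1 at 45.5%. The share was 49.3% for GBP5 and 58.2% for GBP4, where it depends on the prior count because the AX-0085 libraries were at 0. In the linear levels, both libraries of GBP2 were above both of GBP3, and both of GBP3 were above those of the other members, which overlapped among themselves.

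**Figure D4:**
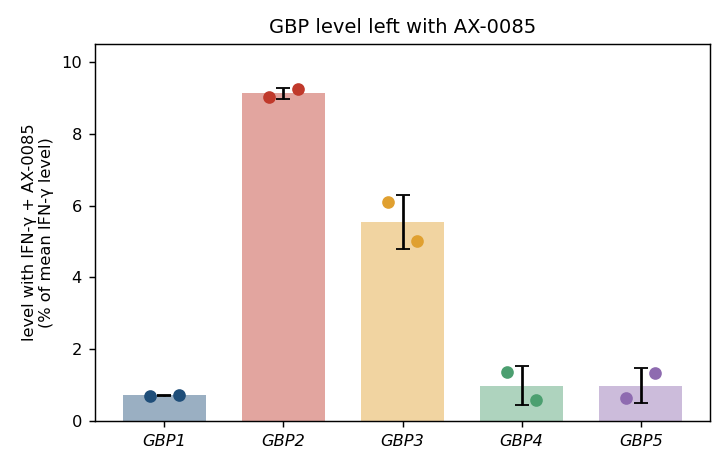
Level of each member in cells with IFN-γ and AX-0085 as a percent of its mean level with IFN-γ alone, with the 2 libraries as points, their mean as a bar from 0 and their SD as a line. GBP2 (9.13%) and GBP3 (5.55%) stand above GBP1, GBP4 and GBP5, whose means lie between 0.715% and 0.979%.

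The shift in makeup did not depend on any scaling between libraries. Within a library, GBP2 had 15.8% and 14.3% as many counts as GBP1 under IFN-γ and 191.8% and 192.5% under both agents. GBP3 had 11.4% and 12.5% as many counts as GBP1 under IFN-γ, and 102.7% and 83.0% under both agents. The ratio of GBP5 to GBP1 was 2.76% and 3.41% under IFN-γ, and 2.74% and 5.66% under both agents, where it rests on 2 and 3 counts. An exact permutation test of 2 libraries against 2 cannot give a p below 0.33, so these ratios are given without a test.

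Per kb, the order with both agents was GBP2 (0.627 ± 0.0106 CPM per kb, SD, n = 2), GBP3 (0.511 ± 0.0694), GBP1 (0.386 ± 0.00560), GBP4 (0.0485 ± 0.0272) and GBP5 (0.00907 ± 0.00457), with no overlap between neighbours. GBP1, which led under IFN-γ alone, stood below GBP2 here. Its place below GBP3 did not hold with the length of the longest transcript, where GBP1 was at 0.572 and 0.584 CPM per kb and GBP3 at 0.652 and 0.538. Its share of the summed level was 23.4% and 25.5%, while GBP2 held 37.9% and 41.5% and GBP3 held 34.2% and 30.2%.

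GBP2 was the 1 member called with AX-0085 alone. GBP2 had 51 and 33 counts with AX-0085 against 9 and 9 in untreated cells, a rise of 2.29 on the log2 scale (95% interval 1.55 to 3.03, adjusted p = 9.282e-05). It was called higher beside 6.41% of all genes tested. The AX-0085 libraries differed from each other (2.03 and 1.24 CPM), but both were above both untreated libraries (0.298 and 0.366 CPM), and the log2 change ranged from 1.90 to 2.61 when single libraries were left out. No member was called lower, as 5.62% of all genes were.

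GBP3 had 12 and 18 counts with AX-0085 against 25 and 24 without. Its groups did not overlap, but the log2 difference of -0.62 (95% interval -1.24 to -0.0025) had an adjusted p of 0.0982 and was not called. GBP1 had 2 and 1 counts with AX-0085, and the ratio to untreated cells was 0.530 with a 95% counting interval of 0.0858 to 2.48. GBP4 and GBP5 had no count with AX-0085 and 1 count in untreated cells, which gives no fold. For GBP1, GBP4 and GBP5 a fall was not detectable at this depth, and the counting interval of GBP1 leaves room for a rise of up to 2.48-fold. GBP2 was the highest per kb with AX-0085 alone, at 0.281 and 0.172 CPM per kb, followed by GBP3 at 0.112 and 0.158, with libraries that did not overlap.

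The ratio of GBP2 to GBP3 counts within a library separated untreated cells from the rest. It was 0.360 and 0.375 in untreated cells, 4.25 and 1.83 under AX-0085, 1.38 and 1.14 under IFN-γ, and 1.87 and 2.32 under both agents. The 2 untreated libraries were the only ones with more GBP3 than GBP2 counts.

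GBP1, GBP2 and GBP3 were higher with both agents than with AX-0085 alone. GBP4 was called only with all 4 groups in the fit. IFN-γ had acted for 24 h before AX-0085 was added. Transcripts left from that time and induction under AX-0085 cannot be told apart. Compared with AX-0085 alone, cells with both agents had more GBP1 (126 counts over 2 libraries against 3, ratio 40.6 with a 95% counting interval of 13.6 to 199, adjusted p = 2.167e-07). GBP3 was 3.79-fold higher (log2 1.92, SE 0.24, adjusted p = 5.64e-05) and GBP2 2.77-fold higher (log2 1.47, SE 0.20, adjusted p = 0.000114). GBP4 was at least 2.56-fold higher, with the AX-0085 libraries set at the floor of 3 counts each (adjusted p = 0.00289). GBP4 passed the filter through the IFN-γ libraries, and with the fit limited to the groups compared 3 members were called and GBP4 gave no value. GBP5, with 2 and 3 counts against none, was at or under the floor in both groups and not called (adjusted p = 0.0604). In this comparison 1.79% of all genes were called higher. The median log2 change of the members was 4.33 in the fit and 1.47 with GBP4 and GBP5 at their bounds, beside -0.01 over all genes.

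AX-0085 did not bring GBP1, GBP2 and GBP3 back to the level of untreated cells. With both agents GBP1 was 20.6-fold higher than in untreated cells (log2 4.37, SE 0.28, adjusted p = 3.214e-08), GBP2 13.6-fold (log2 3.76, SE 0.27, adjusted p = 1.146e-07) and GBP3 2.47-fold (log2 1.30, SE 0.21, adjusted p = 0.000163). For GBP2, the level with AX-0085 alone was itself 4.89-fold above that of untreated cells. For GBP1, with 6 untreated counts, the 95% counting interval of the ratio was 9.60 to 59.7, wider than the SE implies. GBP4 was called too (adjusted p = 0.00322), with 17 counts over 2 libraries against 1, a ratio of 17.4 with a 95% counting interval of 2.73 to 727, but gave no value with the fit limited to these 2 groups, where 3 members were called. GBP5 was at or under the floor in both groups and not called (adjusted p = 0.155). Among all genes, 7.51% were called higher in this comparison.

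The effect of AX-0085 was called as different with and without IFN-γ for 3 members. The interaction, the log2 change upon AX-0085 in IFN-γ-treated cells minus that in cells without IFN-γ, was -6.27 for GBP1 (SE 1.04, adjusted p = 0.000259), -5.74 for GBP2 (SE 0.35, adjusted p = 4.959e-08) and -3.53 for GBP3 (SE 0.36, adjusted p = 3.871e-06). For GBP2 the 2 effects had opposite signs, up without IFN-γ and down with it. The value of GBP1 rests on 3 counts in the AX-0085 group. Its 6 untreated counts leave too little room for a fall like that with IFN-γ, so its interaction is a description only. For GBP4 and GBP5, at 0 in both AX-0085 libraries, the interaction could not be estimated. Among all genes, 6.46% were called lower in the interaction.

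The remaining GBP genes of the cluster stayed near silence. GBP6 had 1 and 2 counts with IFN-γ and none in the other 6 libraries. GBP7 had 3 and 0 counts without treatment, 8 and 9 under AX-0085, 4 and 5 under IFN-γ and 11 and 7 under both, and neither gene passed the filter. The pseudogene GBP1P1 had 1 and 0 counts without treatment, 2 and 1 under AX-0085, 226 and 235 under IFN-γ and 3 and 1 under both agents. It was called higher with IFN-γ (adjusted p = 5.328e-10) and lower upon AX-0085 (adjusted p = 1.021e-09). Of all stretches of the GBP1 canonical transcript as long as a read, 1.90% also occur in GBP1P1, so reads may be split between them. In their canonical transcripts GBP2 and GBP3 shared no such stretch with another gene, GBP4 shared 0.910% and GBP5 1.013%. Over all annotated exons, 8.60% of the bases of GBP2 lie in exons of other genes, and GBP7 is among the genes that overlap it.

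Of the 10 protein-coding genes within 500 kb of the span, GBP6 and GBP7 included, 5 were tested, none was called higher with IFN-γ and 1 was called lower. Among all genes tested, 10.3% were called higher and 17.2% lower. With 5 genes tested, these numbers do not set the neighbours apart from other genes. GTF2B, a general transcription factor gene, had a log2 change of 0.69, PKN2, a kinase gene, 0.52, KYAT3, an aminotransferase gene, 0.42 and LRRC8B, an anion channel gene, -0.77, and none of these was called. The gene called lower was ENSG00000271949, with 19 and 19 counts without treatment and 4 and 7 under IFN-γ, and it was also lower with AX-0085 alone (6 and 2 counts). RBMXL1, LRRC8C and ENSG00000288629 are listed at 0 in all libraries, and 7.06%, 2.77% and 100% of their exon bases lie in exons of other genes, so no level is read from these zeros either.

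**Figure D5:**
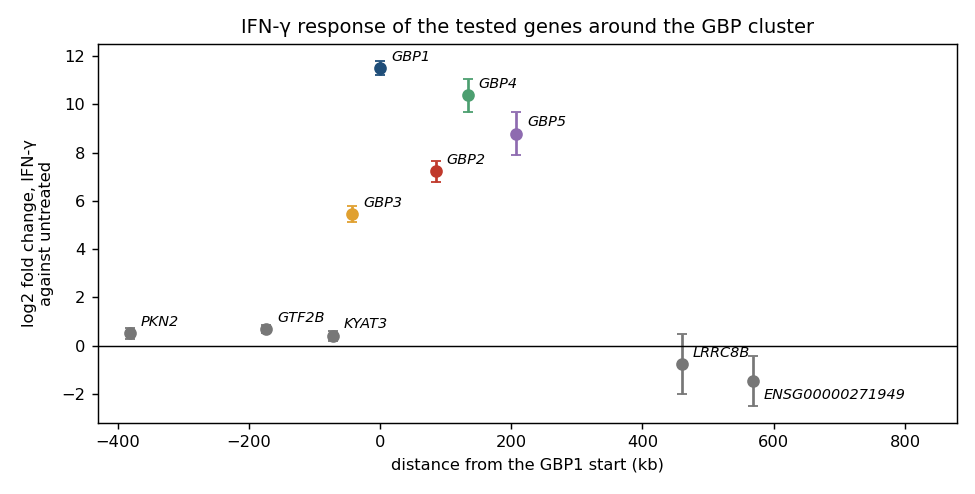
Fitted log2 fold change with IFN-γ against untreated cells, with 95% intervals, for the 10 tested genes in and around the GBP cluster, against the distance of their start from that of GBP1 in kb (positive towards higher coordinates). The 5 members lie between 5.45 and 11.49, and the 5 flanking genes between -1.45 and 0.69.

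Among genes of IFN-γ signalling, SOCS3, a feedback inhibitor of cytokine signalling, rose by 3.01 on the log2 scale with IFN-γ (SE 0.09, adjusted p = 8.14e-12) and fell by 3.28 upon AX-0085 addition (SE 0.09, adjusted p = 6.14e-12). It was also called lower with AX-0085 alone (log2 -1.14, adjusted p = 4.17e-07). STAT3 was not called with IFN-γ (log2 0.45) and fell by 1.07 when AX-0085 was added. IRF9, a factor of the IRF family, was named after its values were seen. It rose with IFN-γ and fell with AX-0085 on few counts, 3 and 1 in untreated cells, 11 and 23 under IFN-γ and 7 and 2 under both. JAK1 was not called in either comparison (log2 -0.08 and -0.26). IRF1 and SOCS1 are listed at 0 in all 8 libraries. Of the exon bases of IRF1, 22.9% lie in exons of other annotated genes, but 0% in exons on the same strand. For SOCS1 0% lie in exons of other genes. Whether the counting set these zeros was not tested, so no level is read from them.

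Among the other interferon-inducible GTPases, the antiviral dynamin-like proteins MX1 and MX2 rose with IFN-γ and fell upon AX-0085 addition. MX1 had 19 and 16 counts without treatment, 22 and 22 under AX-0085, 360 and 654 under IFN-γ and 80 and 44 under both. It rose by 5.15 on the log2 scale (SE 0.22, adjusted p = 3.0e-10) and fell by 3.30 (SE 0.18, adjusted p = 3.49e-09). MX2 had 1 and 2 counts without treatment, 19 and 67 under IFN-γ and 7 and 6 under both, and was called in both comparisons (adjusted p = 2.2e-05 and 0.000215). IRGQ was not called, and IRGM and GVINP1 did not pass the filter. Of this list of 7 genes, 3 were tested, 2 rose with IFN-γ, both fell upon AX-0085 addition and none was called with AX-0085 alone. Among all genes, 10.3% were called higher with IFN-γ and 8.28% lower upon AX-0085 addition. With AX-0085 alone, 6.41% were called higher and 5.62% lower. The median of the list was 5.01 under IFN-γ and -2.95 upon AX-0085.

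Of 10 constitutive relatives of the GBPs in the dynamin superfamily, the atlastins, dynamins and mitochondrial fusion and fission GTPases, none rose with IFN-γ and 2 fell, where 10.3% of all genes tested were called higher and 17.2% lower. Upon AX-0085 addition 1 rose and none fell, where 16.5% of all genes were called higher and 8.28% lower. DNM1, a dynamin of endocytosis, stood at 179.8 and 180.5 CPM in untreated cells, 29.3 and 33.2 under IFN-γ and 162.6 and 157.3 under both. It fell by 2.52 on the log2 scale with IFN-γ (SE 0.07, adjusted p = 4.56e-12) and rose by 2.35 upon AX-0085 (SE 0.07, adjusted p = 1.19e-11). The other gene that fell with IFN-γ was DNM3 (log2 -1.44, adjusted p = 0.00759), named after its values were seen. DNM2, MFN2 and ATL2, the most abundant others, changed by -0.61, 0.45 and 0.11 under IFN-γ and were not called. The list's median was -0.33 under IFN-γ and 0.04 upon AX-0085.

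Of 12 genes that act with GBPs in inflammasome activation and bacterial killing, 7 were tested, 4 rose with IFN-γ and none fell, while upon AX-0085 addition 3 fell and 2 rose, beside the shares of all genes given for the dynamin relatives. TRIM21, a cytosolic antibody receptor and ubiquitin ligase, rose by 1.81 on the log2 scale (SE 0.08, adjusted p = 3.61e-10) and fell by 1.67 (SE 0.08, adjusted p = 1.02e-09). The others that rose with IFN-γ, named after their values were seen, were CASP1, CASP4 and APOL3. APOL3, an apolipoprotein L family member that permeabilizes bacterial membranes together with GBP1, had 1 and 0 counts without treatment, 0 and 1 under AX-0085, 496 and 592 under IFN-γ and 47 and 30 under both. CASP1, the caspase of canonical inflammasomes, had 2 and 2 counts without treatment, 123 and 187 under IFN-γ and 25 and 19 under both. CASP4, the caspase that senses lipopolysaccharide, rose by 1.91 under IFN-γ. Upon AX-0085 addition it changed by -0.87 (adjusted p = 0.00011, edgeR quasi-likelihood test), under the 2-fold threshold, and was not called. With AX-0085 alone it was higher by 0.99 on the log2 scale, also not called. It stood at 5.92 CPM with both agents and 5.69 with AX-0085 alone, a log2 difference of 0.05.

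The 2 effector genes that rose upon AX-0085 addition were GSDMD, the pore-forming gasdermin cut by these caspases, and PYCARD, the inflammasome adaptor. GSDMD stood at 30.4 and 33.0 CPM in untreated cells, 56.5 and 54.3 under AX-0085, 32.3 and 26.4 under IFN-γ and 62.9 and 60.6 under both, and rose by 1.08 (SE 0.09, adjusted p = 3.19e-07). PYCARD stood at 5.62 and 7.49 CPM in untreated cells, 8.29 and 7.38 under AX-0085, 3.91 and 3.66 under IFN-γ and 10.2 and 8.36 under both. It rose by 1.31 (SE 0.17, adjusted p = 1.48e-05). Neither was called with IFN-γ, although PYCARD was lower there, with a log2 change of -0.79. Against untreated cells, PYCARD with both agents was higher by 0.52 and not called. RNF213, a ubiquitin ligase that coats bacteria and the most abundant gene of the list, changed by 0.68 under IFN-γ and -0.33 upon AX-0085 and was not called. AIM2, NLRP3, CASP5, IL1B and IL18 did not pass the filter. The list's median was 1.81 under IFN-γ and -0.87 upon AX-0085.

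Of 6 genes for enzymes that prenylate proteins or process them afterwards, 5 were tested and none was called with IFN-γ, upon AX-0085 addition or with AX-0085 alone. Among all genes, the shares called higher and lower were 10.3% and 17.2% with IFN-γ and 16.5% and 8.28% upon AX-0085 addition. With AX-0085 alone they were 6.41% and 5.62%, so 5 genes without a call do not stand apart. ICMT, which methylates prenylated proteins, had the largest log2 change with IFN-γ, -0.97. FNTA, the subunit shared by both classes of protein prenyltransferase, changed by 0.74. The list's median was 0.09 under IFN-γ and -0.32 upon AX-0085.

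The genes whose pattern was most like that of the members were already well expressed without IFN-γ. Likeness was the Pearson r of log2 CPM over the 8 libraries, averaged over the 5 members, among the 11365 genes that averaged at least 1 on the log2 CPM scale. The 6 highest were USP36 (0.983), CDYL (0.982), TGIF1 (0.982), SUPT20H (0.982), MDM2 (0.981) and CLPX (0.981). The libraries share the 4 groups, so these values follow the order of the groups and carry no p. MDM2, the ubiquitin ligase of p53, stood at 40.6 and 39.4 CPM in untreated cells, 43.9 and 45.6 under AX-0085, 166.2 and 166.0 under IFN-γ and 65.0 and 62.8 under both. USP36, a nucleolar deubiquitinase, stood at 78.6 and 81.4, 86.1 and 86.1, 272.5 and 273.0, and 116.5 and 116.4 CPM in the same order of groups. MDM2, USP36, TGIF1 and SUPT20H were called higher with IFN-γ, by 2.05, 1.77, 1.15 and 1.04 on the log2 scale, and MDM2 and USP36 were called lower upon AX-0085, by -1.38 and -1.23. CDYL and CLPX were called in neither comparison, as their changes stayed under 2-fold (log2 0.92 and 0.66 with IFN-γ). Among all genes, 10.3% were called higher with IFN-γ and 8.28% lower upon AX-0085 addition. The 6 genes were picked for their likeness to the members in these same libraries. Their directions follow from that choice, so the calls are descriptions only.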

How the data were processed

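Per the labels, mRNA of A549 cells was prepared with a stranded kit. The authors trimmed reads with Trim Galore 0.6.7, mapped them to GRCh38 with STAR 2.7.9a and counted them per gene with featureCounts, and the deposited values are raw counts. The annotation release, the strand setting and the treatment of reads with several positions are not given in the sources used here, so reads of overlapping genes may have been lost or shared. Of the exon bases, 0% in GBP1, 8.60% in GBP2, 1.54% in GBP3, 2.41% in GBP4 and 2.96% in GBP5 lie in exons of other genes of the GENCODE annotation.

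From the counts, genes were filtered with filterByExpr, scaled with TMM factors (0.916 to 1.04) and tested in edgeR 4.0.16 (R 4.3.3) by the quasi-likelihood test, with all 8 libraries in 1 model of 4 groups without covariates. Benjamini-Hochberg adjustment covered the 15066 genes tested. Calls needed an adjusted p below 0.05 together with more than a 2-fold change, and log2 values used a prior count of 0.125. Library totals of 20672828 to 29978251 counts set the precision, and intervals and floors on counts cover counting error only. Replicates of each group differed by more than sampling noise, so none was treated as a repeat deposit of another. The script was tested on simulated counts.

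The genes named are the 5 members, the other GBP and interferon-inducible GTPase genes, IRF1, up to 4 genes of highest level from each list, the cluster neighbours and the 6 genes most like the members, and further ones are marked as named after their values were seen. Members and lists were chosen with earlier results of these data known. Alternatives were RLE size factors, library size alone, DESeq2 1.42.0, other filters, the replicate block, the longest transcript as length and single libraries left out. Some results of the IFN-γ signalling genes are not reported here.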

Additional observations from a re-analysis of the deposited data

Results flagged for a closer look

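The effect of AX-0085 was called as different between cells with and without IFN-γ for 3 members. The test was of the difference itself (the interaction in edgeR's quasi-likelihood fit), in which 6.46% of all genes were called lower. The log2 difference between the 2 effects was -6.27 for GBP1, -5.74 for GBP2 and -3.53 for GBP3. For GBP1, the 6 untreated counts leave too little room for a fall like that with IFN-γ, so its value is a description only. In GBP2 both AX-0085 libraries lay above both untreated libraries, and both libraries with IFN-γ and AX-0085 lay below both with IFN-γ alone. With 2 libraries a group, single samples were not examined for standing apart.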

How the results depend on the processing

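Of the values recomputed under other settings, 384 for single genes and 146 for the comparisons kept their direction and side of the threshold, moved by less than the replicate spread or, for numbers of members called, stayed within 1.5 times, and 20 moved by more. None reversed. Under a filter of 10 counts in each library GBP3 alone was tested, and the numbers called were 1 with IFN-γ, 1 upon AX-0085 addition to IFN-γ, 0 with AX-0085 alone, 1 for both agents against AX-0085, 1 for both against untreated cells and 1 in the interaction. DESeq2 called 5 members in the interaction, adding GBP4 and GBP5, which were at 0 in both AX-0085 libraries. In a fit of only the groups compared, where GBP4 gave no value for both agents against AX-0085 or untreated cells, 3 members were called in each of these. GBP5 was called against AX-0085 without a filter beyond 1 count, so that 5 members were. The percent of the IFN-γ change left was 0.679 (RLE size factors) and 0.759 (library size alone) for GBP1, and 6.40 (library size alone) for GBP2. Scaling by library size alone moved the median of all genes to -0.18 with IFN-γ, 0.16 upon AX-0085 addition and 0.17 in the interaction, and no member changed its direction or call under it. With the longest transcript as length, levels with IFN-γ were 80.9, 12.1, 10.7 and 1.49 CPM per kb for GBP1, GBP2, GBP3 and GBP5. With single libraries left out, the percent left was 0.680 to 0.708 for GBP1 and 5.07 to 6.67 for GBP2, 3.65 to 4.73 for GBP3, 0.589 to 1.36 for GBP4 and 0.630 to 1.33 for GBP5, and the numbers of members called, 5, 5, 1, 4, 4 and 3 in the 6 comparisons, did not change.

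With the replicate block, which treats libraries of the same number as a pair, the numbers called were again 5, 5, 1, 4, 4 and 3. Deviations of same-numbered libraries correlated at -0.109 to 0.0873, so the numbers were not taken as pairs. A block with the untreated numbers swapped, chosen after seeing the data, called 5, 5, 1, 5, 4 and 3 members. Depth limits GBP1, GBP4 and GBP5 without IFN-γ, where 0 to 4 counts a library can show large rises but no fall.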
